A study of Mus musculus with 8 samples.

Results

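Nodal and BMP signalling genes were examined in *L3mbtl2*-KD ESCs and control ESCs. They were taken as the array probes whose RefSeq accession maps to 1 of 10 named genes of the Nodal and BMP pathways: the ligands *Nodal*, *Gdf3* and *Bmp4*, the co-receptor *Tdgf1*, the inhibitors *Lefty1*, *Lefty2* and *Smad7*, and the target genes *Id1*, *Id2* and *Id3*. All 10 were found among the 19751 genes with a named probe, with 14 probes in all. The cells were VV3 ESCs, a male mouse ESC line that carries a Venus fluorescent reporter of *Vasa* (*Ddx4*), grown with serum and LIF on mitotically inactivated STO fibroblast feeders. They were transfected with siRNA against *L3mbtl2* (4 biological replicates) or with the non-silencing siRNA AllStars (4 biological replicates), and each RNA was read on its own one-colour Agilent array. Reporter-positive cells were collected by FACS for the knockdown, as the methods tell, but whether the control cells were sorted is not stated, so siRNA and sorting cannot be told apart.

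Nodal, together with the related ligands GDF1 and GDF3, binds activin receptors and the co-receptor CRIPTO, which *Tdgf1* encodes, and signals through SMAD2 and SMAD3. With SMAD4 and the cofactor FOXH1 these activate *Nodal* itself and the genes of its own secreted inhibitors, *Lefty1* and *Lefty2*, so that the pathway holds both a positive and a negative loop. BMP ligands signal through SMAD1 and SMAD5 and activate the *Id* genes, whose products bind E proteins and keep them from DNA, which in mouse ESCs grown in serum and LIF is known to hold back neural differentiation, and SMAD7 inhibits receptors of both branches.

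Levels are given as log2 of the background-subtracted intensity minus the 75th percentile of the array, so that 0 is the intensity of that percentile. That percentile lay between 791 and 1038 intensity units in *L3mbtl2*-KD ESCs and between 854 and 1024 in control ESCs. Spots well above background made up 59.5 to 63.9% in *L3mbtl2*-KD ESCs and 62.0 to 66.6% in control ESCs. *L3mbtl2* was at 0.27, -0.18, -0.21 and -0.31 in control ESCs and at -1.45, -1.26, -1.58 and -1.73 in *L3mbtl2*-KD ESCs. All 4 knockdown arrays were thus below all control arrays, in keeping with their labels. *Ddx4*, the gene behind the reporter used for the sort, was at 0.86, 0.99, 0.99 and 0.85 in control ESCs and at 3.87, 3.62, 3.70 and 3.82 in *L3mbtl2*-KD ESCs. The knockdown arrays were far above the control arrays for this gene. The 8 markers of pluripotent stem cells examined (among them *Pou5f1*, *Sox2* and *Zfp42*) were each well above background on all 8 arrays.

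*Nodal* and its inhibitor gene *Lefty2* were up-regulated in *L3mbtl2*-KD ESCs, 1.51-fold and 2.02-fold, respectively. No member was down-regulated at an adjusted p under 0.05 in the comparison of the groups without pairing, although *Bmp4*, *Tdgf1* and *Id2* came close to it and passed when samples with the same replicate number were paired. Up-regulated members were thus 2 of 10, where 10.3% of all 13656 genes tested were up-regulated, and down-regulated members were 0 of 10, where 11.7% of all genes were (limma with Benjamini-Hochberg adjustment). At an unadjusted p under 0.05 in limma, 2 members were higher and 3 lower, beside 18.2% and 20.5% of all genes. At 0.0286, the smallest p of the two-sided exact permutation test, 2 of the 10 (*Nodal* and *Lefty2*) were higher, beside 13.8% of all genes. At that p 1 of the 10 (*Tdgf1*) was lower, beside 15.1% of all genes. Past 2-fold, the count was 1 of 10 up-regulated, beside 2.49% of all genes, and 0 of 10 down-regulated, beside 3.22%. The median log2 fold change of the 10 members was -0.22, and that of all genes was -0.01.

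**Figure D1:**
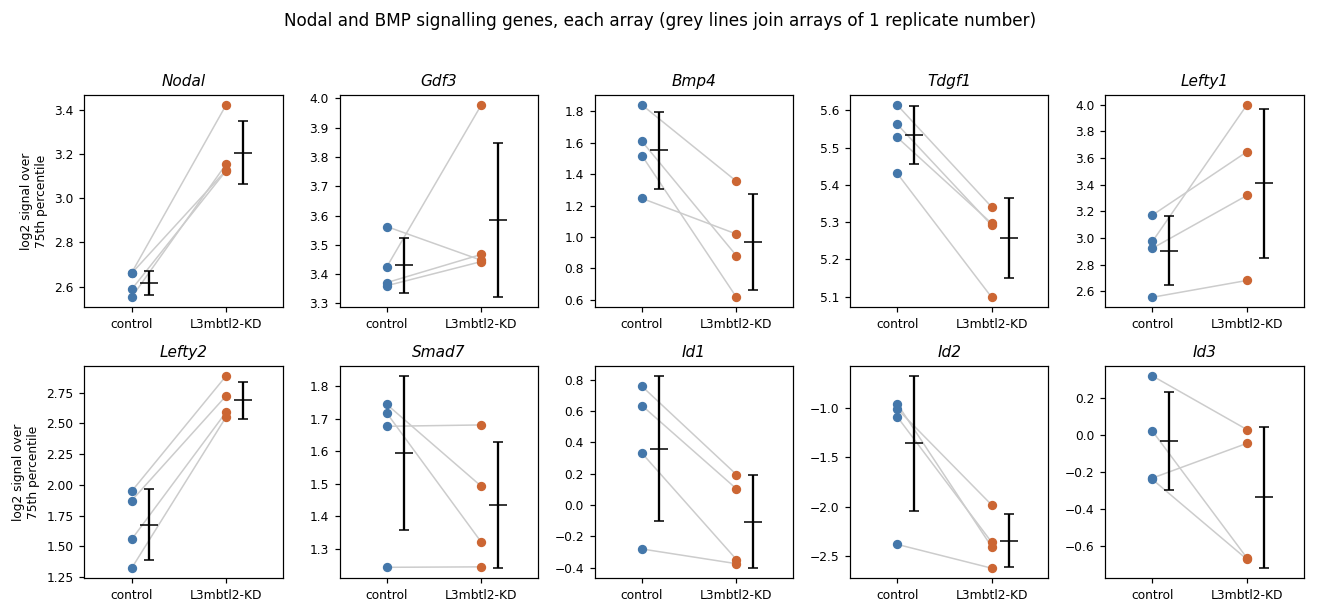
Level of each member (log2 signal over the 75th percentile of the array, vertical axes with separate ranges) on the 4 control arrays (blue) and the 4 L3mbtl2-KD arrays (orange), with mean and SD beside the points and grey lines joining arrays with the same replicate number. The groups are apart for Nodal, Lefty2 and the brightest probe of Tdgf1, and overlap for the other members. At the smallest p of the exact permutation test, which such a separation gives, 13.8% of all genes were higher and 15.1% lower.

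Among the ligands, *Nodal* (NM_013611) maps to chromosome 10 in GRCm38.p6. Its promoter in the RefSeq table, from 250 bases before to 50 bases after the start site, lies on the plus strand at chr10:61417722-61418021. It is shown because *Nodal* is an up-regulated member whose promoter the table holds. Promoters of 5 of the 10 members were matched. The promoters of *Bmp4* (minus strand, chr14:46390620-46390919) and *Id2* (minus strand, chr12:25096043-25096342) are set beside it. They were chosen after their values were seen, since they held a motif and their genes passed the test under pairing. Capitals mark matches to the motifs searched on both strands, which were CACGTG (the E-box that MAX binds), GCGGGAA (E2F), GTCTAGAC (a SMAD palindrome) and GGCGCC (a GC-rich SMAD element).
Nodal: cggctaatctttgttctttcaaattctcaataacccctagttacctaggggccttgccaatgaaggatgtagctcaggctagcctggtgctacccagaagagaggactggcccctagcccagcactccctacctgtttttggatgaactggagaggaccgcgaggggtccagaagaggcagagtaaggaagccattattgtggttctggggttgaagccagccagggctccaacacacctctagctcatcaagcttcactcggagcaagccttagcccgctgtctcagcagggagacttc
Bmp4: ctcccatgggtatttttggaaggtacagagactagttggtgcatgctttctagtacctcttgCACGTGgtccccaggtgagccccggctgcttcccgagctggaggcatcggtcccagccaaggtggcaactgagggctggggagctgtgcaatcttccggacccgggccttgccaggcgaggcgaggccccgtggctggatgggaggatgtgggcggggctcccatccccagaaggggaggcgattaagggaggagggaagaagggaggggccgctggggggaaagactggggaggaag
Id2: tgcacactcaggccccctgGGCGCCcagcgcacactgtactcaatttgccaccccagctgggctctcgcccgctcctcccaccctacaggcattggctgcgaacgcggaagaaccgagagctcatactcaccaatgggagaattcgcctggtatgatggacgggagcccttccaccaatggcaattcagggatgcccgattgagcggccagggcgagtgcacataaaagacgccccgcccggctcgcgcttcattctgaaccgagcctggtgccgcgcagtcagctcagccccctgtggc
The *Nodal* promoter held none of the motifs, the *Bmp4* promoter held 1 E-box at position -188 from the start site, and the *Id2* promoter held 1 GC-rich SMAD element at position -231. The matched promoters of *Tdgf1* and *Id3* held none. Of the 32851 promoters in the table, 7.15% held the E-box, 4.60% the E2F motif, 0.213% the SMAD palindrome and 11.9% the GC-rich SMAD element. A match describes letters only.

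The level of *Nodal* was 2.66, 2.59, 2.55 and 2.66 in control ESCs and 3.13, 3.12, 3.15 and 3.42 in *L3mbtl2*-KD ESCs. The groups did not overlap, the control arrays lay close together, and the fourth knockdown array was the highest. The mean rose from 2.62 ± 0.055 to 3.21 ± 0.14 (SD, n = 4 each), a log2 fold change of 0.59 (with an SE of 0.092, limma adjusted p = 0.0042, Benjamini-Hochberg). In a two-sided exact permutation test p was 0.0286, the smallest that 4 against 4 allow. On the first slide the log2 fold change was 0.50, on the second 0.68. With 2 arrays a group the limma adjusted p was 0.22 and 0.05, respectively, and with the slide as a block it was 0.0037.

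*Gdf3*, a Nodal-related ligand that also binds CRIPTO, was read by 2 probes that disagreed in sign. The brighter was at 3.56, 3.36, 3.37 and 3.43 in control ESCs and at 3.45, 3.44, 3.47 and 3.98 in *L3mbtl2*-KD ESCs, with a log2 fold change of 0.15 (95% confidence interval -0.15 to 0.46). The dimmer was at 1.30, 0.79, 0.53 and 0.37 in control ESCs and at 1.0, 0.58, 0.26 and 0.31 in *L3mbtl2*-KD ESCs, with a log2 fold change of -0.21 (interval -0.74 to 0.32). The groups overlapped for both probes, and the limma adjusted p with Benjamini-Hochberg adjustment was 0.47 and 0.57. With the replicate number as a block, the dimmer probe passed (adjusted p = 0.038, lower in 4 of 4 pairs) and the brighter did not (0.33). No direction can be given for *Gdf3*.

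*Bmp4*, the BMP ligand of the set, was at 1.52, 1.61, 1.84 and 1.25 in control ESCs and at 0.62, 0.88, 1.35 and 1.02 in *L3mbtl2*-KD ESCs. The groups overlapped, since the third knockdown array was above the fourth control array, but within each replicate number the knockdown array was the lower. The log2 fold change was -0.58 (SE 0.18, 95% confidence interval -0.99 to -0.18, limma adjusted p = 0.053, Benjamini-Hochberg), just short of the threshold. Slide by slide it was -0.81 and -0.36. The slide as a block gave an adjusted p of 0.043, and the replicate block gave 0.018. A second *Bmp4* probe was well above background on 1 control array only, the fourth, where it read -1.98 against -7.74, -7.32 and -7.21 on the others and -7.09 to -7.46 in *L3mbtl2*-KD ESCs, so it was not tested.

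*Tdgf1* encodes CRIPTO, the membrane-anchored co-receptor that Nodal needs, and its 3 probes gave similar differences. The brightest was at 5.56, 5.61, 5.53 and 5.43 in control ESCs and at 5.29, 5.34, 5.30 and 5.10 in *L3mbtl2*-KD ESCs. The groups of this probe did not overlap, though the gap was narrow (two-sided exact permutation test, p = 0.0286). The other probes read 3.28, 3.19, 3.30 and 2.98 against 3.05, 2.97, 2.98 and 2.77, and 4.79, 4.79, 4.64 and 4.43 against 4.54, 4.48, 4.42 and 4.19 in *L3mbtl2*-KD ESCs. For both of these the groups overlapped at the fourth control array. The log2 fold changes were -0.28, -0.24 and -0.25, or 1.21-fold at most, with adjusted p of 0.058, 0.14 and 0.17 (limma with Benjamini-Hochberg adjustment). For the brightest probe the difference was -0.27 on one slide and -0.28 on the other, and the slide as a block gave an adjusted p of 0.028. With the replicate block, in which each probe was lower in 4 of 4 pairs, the adjusted p became 0.008, 0.013 and 0.01. The size of the difference was small beside that of *Nodal*, and it had the opposite sign.

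The secreted inhibitors *Lefty1* and *Lefty2* bind Nodal and its co-receptor. *Lefty2* was at 1.95, 1.87, 1.56 and 1.32 in control ESCs and at 2.89, 2.72, 2.59 and 2.55 in *L3mbtl2*-KD ESCs. The lowest knockdown array was well above the highest control array. The mean rose from 1.68 ± 0.29 to 2.69 ± 0.15 (SD, n = 4 each), a log2 fold change of 1.01 (SE 0.15, limma adjusted p = 0.0036, Benjamini-Hochberg; two-sided exact permutation p = 0.0286). On the first slide it was 0.90 (limma adjusted p = 0.10), on the second 1.13, and with the slide as a block the adjusted p stayed below the threshold. The change was close to the 2-fold mark and fell short of it when control replicate 4 (0.90), control replicate 3 (0.97) or the first *L3mbtl2*-KD replicate (0.95) was left out.

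*Lefty1* was at 3.17, 2.56, 2.92 and 2.97 in control ESCs and at 3.65, 2.68, 3.32 and 4.0 in *L3mbtl2*-KD ESCs. Of the knockdown arrays, 3 were above all control arrays, while the second was below most of them, next to the lowest control array of the same number. The log2 fold change was 0.50 (SE 0.27, 95% confidence interval -0.10 to 1.11), with an adjusted p of 0.22 from limma with Benjamini-Hochberg adjustment. It was higher in 4 of 4 pairs, with an adjusted p of 0.051 under the replicate block. Within the slides it was 0.30 and 0.71. Without *L3mbtl2*-KD replicate 2 it was 0.75 (adjusted p = 0.041), and without *L3mbtl2*-KD replicate 4 it was 0.31 (adjusted p = 0.45). Whether *Lefty1* and *Lefty2* differ in response was not tested. *Smad7*, the intracellular inhibitor, was at 1.68, 1.72, 1.74 and 1.24 in control ESCs and at 1.68, 1.32, 1.49 and 1.25 in *L3mbtl2*-KD ESCs, and the groups overlapped (log2 fold change -0.16, 95% confidence interval -0.49 to 0.17, limma adjusted p = 0.48).

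The *Id* genes are the best-known targets of BMP signalling in ESCs. *Id2* was at -2.38, -1.09, -1.01 and -0.96 in control ESCs and at -2.62, -2.36, -1.98 and -2.40 in *L3mbtl2*-KD ESCs. The first control array was as low as the knockdown arrays, and the other control arrays were above all of these. The log2 fold change was -0.98 (SE 0.31, 95% confidence interval -1.70 to -0.26, limma adjusted p = 0.062, Benjamini-Hochberg). It was -0.75 and -1.21 within the slides, with an adjusted p of 0.038 when the slide was a block and 0.02 with the replicate block. Without control replicate 1 it was -1.32 (adjusted p = 0.002).

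*Id1* was at -0.28, 0.63, 0.76 and 0.33 in control ESCs and at -0.37, 0.10, 0.19 and -0.35 in *L3mbtl2*-KD ESCs. Its groups overlapped, again through the first control array, which lay near the lowest knockdown arrays. The log2 fold change was -0.47 (95% confidence interval -1.01 to 0.08, limma adjusted p = 0.21 after Benjamini-Hochberg adjustment), -0.31 and -0.62 within the slides. With the replicate block the adjusted p was 0.024, and without control replicate 1 the log2 fold change was -0.68 (adjusted p = 0.041). *Id3* was at -0.23, 0.32, 0.02 and -0.24 in control ESCs and at -0.05, 0.03, -0.66 and -0.67 in *L3mbtl2*-KD ESCs. It was lower in 3 of 4 pairs and did not pass in any alternative (log2 fold change -0.30, 95% confidence interval -0.77 to 0.16, limma adjusted p = 0.34). Slide by slide the difference was -0.05 and -0.56.

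Samples with the same replicate number deviated together from their group means, so the fit with the replicate number as a block is given beside these results. In this paired fit the up-regulated members were again 2 of 10, *Nodal* (adjusted p = 0.0033) and *Lefty2* (0.0015), where 23.9% of all genes were up-regulated (limma with Benjamini-Hochberg adjustment). The down-regulated members became 5 of 10, where 26% of all genes were, namely *Bmp4*, *Tdgf1*, *Id1*, *Id2* and the dimmer probe of *Gdf3*. *Gdf3* is counted by that probe only, since its brighter probe had a log2 fold change of 0.15 (limma adjusted p = 0.33), and no direction is given for it. Calls thus became more frequent in all genes as well.

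**Figure D2:**
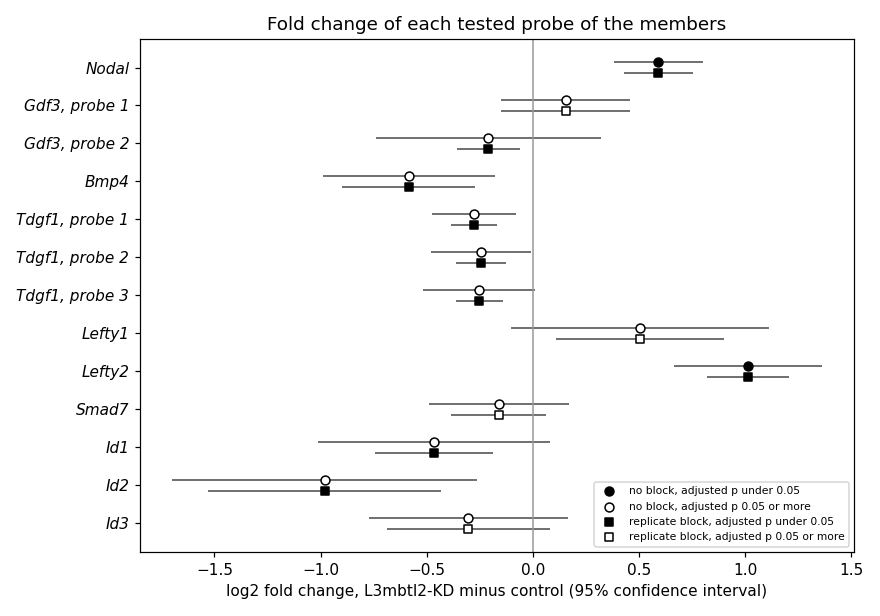
Log2 fold change (L3mbtl2-KD minus control, horizontal axis) of each tested probe of the members, with 95% confidence intervals, without a block (circles) and with the replicate number as a block (squares), filled where the adjusted p was under 0.05. Nodal (0.59) and Lefty2 (1.01) are filled in both fits, and Bmp4, Tdgf1, Id1, Id2 and a probe of Gdf3 only in the paired fit.

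Other genes of the Nodal, activin, TGF-beta and BMP pathways were taken from a list of 64, of which 52 had a tested probe. Up-regulated were 6 of the 52 and down-regulated were 8, at a median log2 fold change of -0.12 (all genes, -0.01). These shares lay near the 10.3% and 11.7% of all genes and say little about the pathway as such. With the replicate block the counts were 8 and 18, beside 23.9% and 26% of all genes, and no gene called without the block was lost. As to ligands of the Nodal and TGF-beta branch, *Gdf1*, whose product pairs with Nodal, was at 1.2, 0.91, 0.95 and 1.15 in control ESCs and at 1.84, 1.38, 1.41 and 1.98 in *L3mbtl2*-KD ESCs. The groups were apart, and the gene was up-regulated (log2 fold change 0.60, SE 0.16, limma adjusted p = 0.031, Benjamini-Hochberg). The call was lost in 9 of 20 alternatives, 5 of which left out 1 sample, with adjusted p up to 0.37. *Gdf1* is known to share its transcript with *Cers1*, and a dimmer *Gdf1* probe was well above background on 3 control arrays and 0 *L3mbtl2*-KD arrays and was not tested. No direction can be read from that probe, whose *L3mbtl2*-KD values lay at background. *Tgfb1* was up-regulated from a low level (log2 fold change 0.53, limma adjusted p = 0.037), which normexp background correction reduced to 0.31 (0.063), and its call was lost in 13 of 20 alternatives.

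*Dand5*, which encodes a secreted antagonist of Nodal, was at -2.95, -2.94, -2.63 and -2.82 in control ESCs and at -2.19, -2.28, -2.14 and -2.01 in *L3mbtl2*-KD ESCs, without overlap. Its log2 fold change was 0.68 (SE 0.10, limma adjusted p = 0.0035), 0.71 and 0.65 within the slides. *Foxh1*, the DNA-binding cofactor of SMAD2 and SMAD3, was at -0.03, -0.20, 0.14 and 0.17 in control ESCs and at 0.40, 0.21, 0.65 and 0.80 in *L3mbtl2*-KD ESCs. These groups were separated by a narrow gap, and the call was marginal (log2 fold change 0.49, SE 0.15, limma adjusted p = 0.049, or 0.0037 with the replicate block). It was lost in 11 of 20 alternatives, in all of which the gene stayed higher. On the BMP side, *Bmp8b* (log2 fold change 0.64, limma adjusted p = 0.022) and the target gene *Msx1* (0.46, adjusted p = 0.018) were up-regulated, both at a low level. The *Bmp8b* call was lost in 7 of 20 alternatives and the *Msx1* call in 3 of 20.

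**Figure D3:**
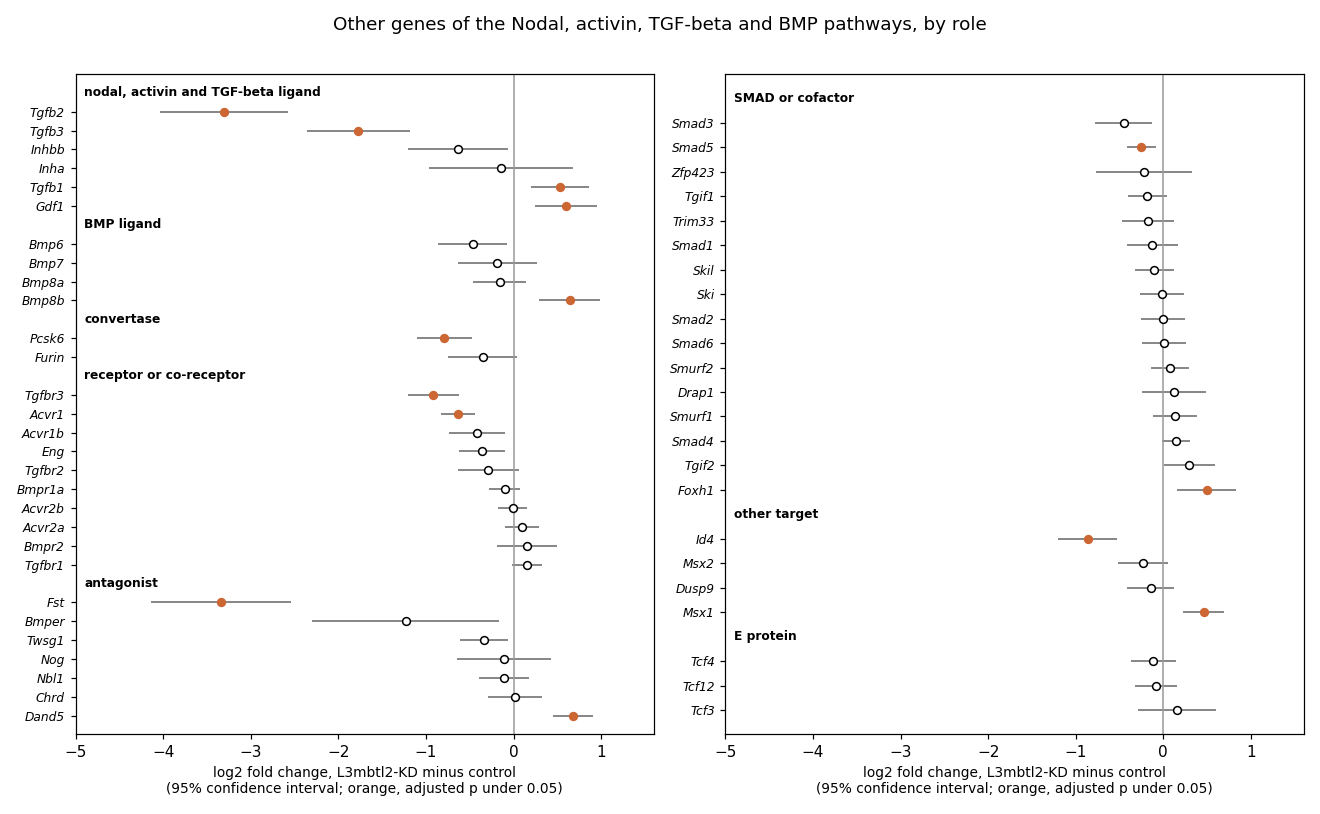
Log2 fold change (L3mbtl2-KD minus control, horizontal axis) with 95% confidence interval of the 52 tested pathway genes outside the members, 1 probe per gene, grouped by role. Orange points have an adjusted p under 0.05, and Tgfb2 was on no L3mbtl2-KD array well above background, so that its point stands for a bound of at least 4.65-fold lower and not for a measured size.

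The largest differences among the called pathway genes were decreases. *Fst* encodes follistatin, a secreted antagonist that binds activin and some BMPs. It was at -1.22, -1.02, -0.51 and -0.33 in control ESCs and at -3.67, -3.54, -4.14 and -5.08 in *L3mbtl2*-KD ESCs. The groups were far apart, with a log2 fold change of -3.34 (SE 0.35, limma adjusted p = 0.00081, Benjamini-Hochberg), -2.48 and -4.20 within the slides and -2.33 with normexp background correction. The ligand gene *Tgfb3* was at -3.34, -2.14, -2.65 and -2.32 in control ESCs and at -4.71, -4.08, -4.31 and -4.44 in *L3mbtl2*-KD ESCs. It was down-regulated without overlap (log2 fold change -1.77, SE 0.26, limma adjusted p = 0.0031), though by -0.90 only with normexp background correction. *Tgfb2* was at -4.06, -3.27, -3.19 and -2.53 in control ESCs and on none of the *L3mbtl2*-KD arrays well above background, which leaves a bound of at least 4.65-fold lower. It passed the filter through the control arrays only and is counted among the down-regulated genes. Its p value rests on *L3mbtl2*-KD values at background and is not given. For the bound, each *L3mbtl2*-KD array was given the lowest level at which any of its probes was still well above background (or the level of the probe itself, if higher), and the bound holds for the background subtraction of the scanner. With normexp the log2 fold change of *Tgfb2* was -0.95. *Bmper*, a BMP-binding antagonist gene (chosen after its values were seen), did not pass (log2 fold change -1.23, 95% confidence interval -2.30 to -0.17, limma adjusted p = 0.10) and was well above background on 2 of 4 *L3mbtl2*-KD arrays.

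Of the receptors and co-receptors, 10 of 13 were tested, 2 were down-regulated and 0 were up-regulated, with log2 fold changes from -0.92 to 0.16. Of all genes, 11.7% were down-regulated and 10.3% up-regulated. With the replicate block, 4 of these receptor genes were down-regulated, beside 26% of all genes. *Tgfbr3*, which encodes betaglycan, a co-receptor for TGF-beta and inhibin, was at -2.43, -2.34, -2.47 and -2.31 in control ESCs and at -3.42, -2.98, -3.26 and -3.56 in *L3mbtl2*-KD ESCs. It fell without overlap (log2 fold change -0.92, SE 0.13, limma adjusted p = 0.0027, Benjamini-Hochberg), by -0.56 with normexp background correction. *Acvr1*, which encodes the type I BMP receptor ALK2, was read by 2 probes that agreed. The brighter was at 1.09, 1.19, 1.29 and 1.14 in control ESCs and at 0.57, 0.53, 0.65 and 0.43 in *L3mbtl2*-KD ESCs. All knockdown arrays were below all control arrays, and the log2 fold changes were -0.63 and -0.62 (limma adjusted p = 0.0023 and 0.018). The activin receptor genes *Acvr2a* and *Acvr2b* and the BMP receptor genes *Bmpr1a* and *Bmpr2* did not pass (log2 fold changes 0.10, -0.01, -0.10 and 0.15). *Acvr1b*, the type I receptor gene of the Nodal branch, had a log2 fold change of -0.42 and an adjusted p of 0.071, or 0.0054 with the replicate block.

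*Pcsk6*, which encodes a convertase that cleaves the Nodal precursor, was at 1.79, 1.92, 1.88 and 1.49 in control ESCs and at 0.92, 1.30, 0.91 and 0.80 in *L3mbtl2*-KD ESCs. It was down-regulated without overlap (log2 fold change -0.79, SE 0.14, limma adjusted p = 0.0069 with Benjamini-Hochberg adjustment), whereas the other convertase gene of the list, *Furin*, had a log2 fold change of -0.35 (adjusted p = 0.19, or 0.018 with the replicate block). Of the SMADs and their cofactors, 16 of 17 were tested, with log2 fold changes between -0.45 and 0.49. *Foxh1* was up-regulated and *Smad5* down-regulated, where 10.3% and 11.7% of all genes were. With the replicate block, 3 were up-regulated and 4 down-regulated, beside 23.9% and 26% of all genes. The *Smad5* difference was small (log2 fold change -0.25, limma adjusted p = 0.044) and its call was lost in 11 of 20 alternatives. A second *Smad5* probe had a log2 fold change of -0.75 with an adjusted p of 0.21, and 1 control array of it was far above the others. *Smad3*, at the lower end of the range, had an adjusted p of 0.061, or 0.0047 with the replicate block, *Smad4* passed with that block (adjusted p = 0.046) but not without it, and *Smad2* and *Smad6* passed in neither of the 2 fits. With the block only, *Tgif1* (limma adjusted p = 0.044) and a probe of *Zfp423* (0.023) were lower, and a probe of *Tgif2* (0.043) was higher. The other probes of *Zfp423* and *Tgif2* did not pass. *Id4*, the ID gene outside the members, was down-regulated (log2 fold change -0.86, limma adjusted p = 0.0061), but it was well above background on 2 of 4 *L3mbtl2*-KD arrays, and with normexp background correction the value was -0.15 (adjusted p = 0.23). The 3 E protein genes, whose products the ID proteins bind, did not pass (log2 fold changes -0.11 to 0.15). *Cer1*, *Bambi*, *Bmp5*, *Gdf6*, *Bmpr1b*, *Cfc1* and *Smad9* were not well above background on any array, and *Bmp2* was on 3 control arrays and 0 *L3mbtl2*-KD arrays.

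**Figure D4:**
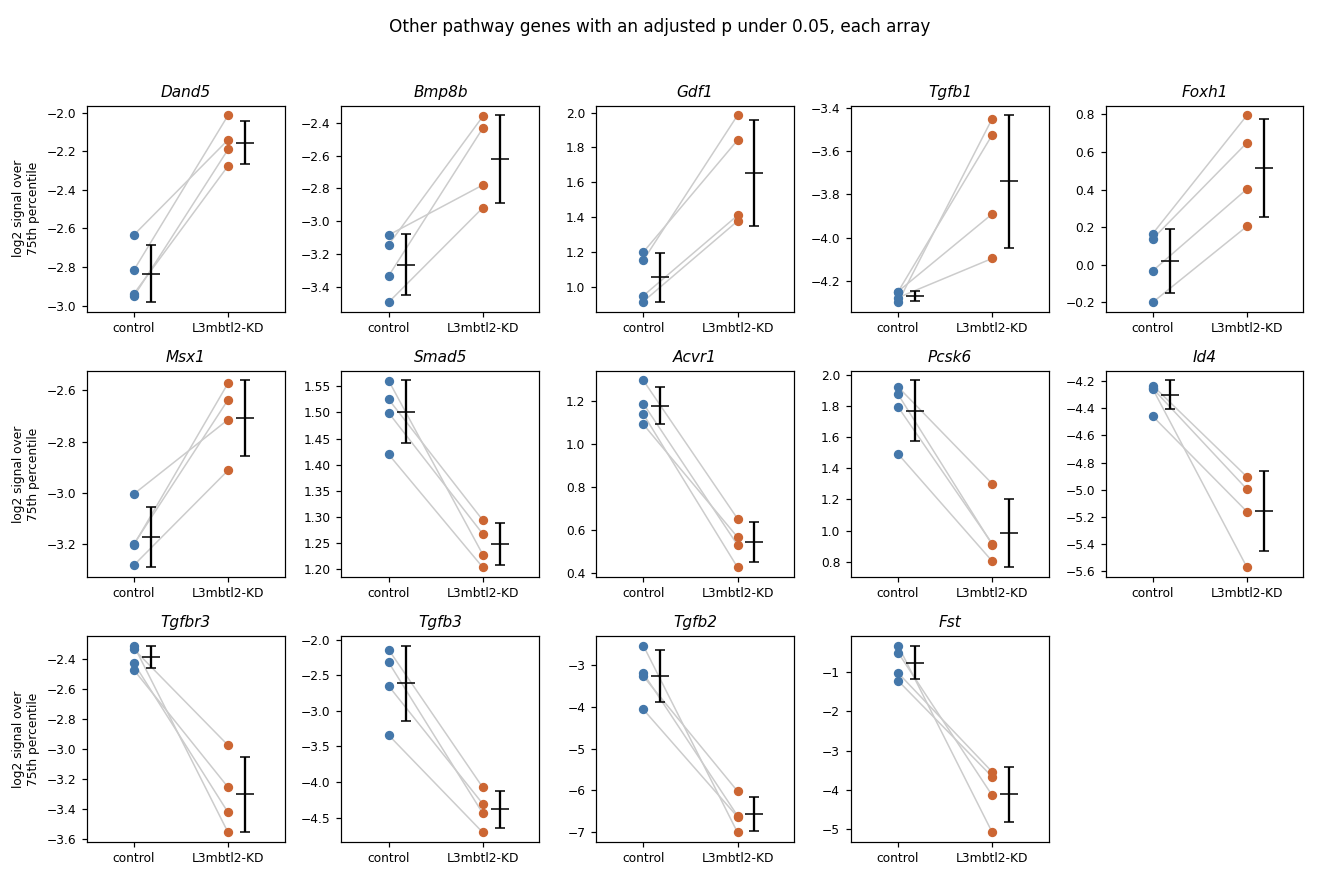
Level (log2 signal over the 75th percentile of the array, vertical axes with separate ranges) of the 14 pathway genes with an adjusted p under 0.05 on each control array (blue) and L3mbtl2-KD array (orange), with mean and SD and grey lines joining equal replicate numbers. In every panel the 4 arrays of one group lie on one side of the 4 arrays of the other. The genes were chosen by their adjusted p on these same arrays, so this separation is not a further result. Tgfb2 was on no L3mbtl2-KD array well above background, so its L3mbtl2-KD points, mean and SD lie at background.

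Markers of feeder fibroblasts and of primitive endoderm were mostly lower in *L3mbtl2*-KD ESCs, while most markers of the other lists did not pass. Of 14 feeder fibroblast markers 12 were tested, of which 9 were down-regulated and 1, *Loxl1* (chosen after its values were seen), was up-regulated. Of all genes, 11.7% were down-regulated and 10.3% up-regulated. The 2 probes of *Loxl1* had log2 fold changes of 1.01 and 0.88. *Fbn1* (0.16, limma adjusted p = 0.74) and *S100a4* (-2.09 for its brighter probe, adjusted p = 0.26) did not pass. Their summed linear signal, relative to the 75th percentile, was 59.4, 64.6, 63.7 and 60.0 in control ESCs and 30.8, 37.5, 35.0 and 30.2 in *L3mbtl2*-KD ESCs. The groups did not overlap in this sum, whose most abundant gene was *Fn1* (log2 fold change -0.88), a matrix gene that is not limited to fibroblasts. Without *Fn1* the sum was 14.3, 15.5, 17.0 and 20.1 in control ESCs and 8.55, 6.92, 9.12 and 9.55 in *L3mbtl2*-KD ESCs. The collagen genes *Col1a1* (log2 fold change -2.22) and *Col1a2* (-2.81) and the smooth muscle actin gene *Acta2* (-2.72) fell, and *Col3a1* (at least 7.81-fold lower) and *Dcn* (at least 12.1-fold lower) were on no *L3mbtl2*-KD array well above background. *Lum* and *Postn* were not well above background on any array. *Fst*, *Tgfb2* and *Tgfb3* fell in the same direction, and the part of feeder cells in these values, or in those of *Id2* and *Bmp4*, was not tested. The sort for reporter-positive cells, which would leave out feeder cells, is described for the knockdown and not stated for the control. In bulk RNA, fewer cells of a type and less RNA per cell cannot be told apart.

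Of 7 primitive endoderm markers, all tested, 5 were down-regulated and 0 up-regulated, beside 11.7% and 10.3% of all genes. Their summed signal was 1.85, 2.20, 1.64 and 2.05 in control ESCs and 1.09, 1.91, 1.44 and 1.17 in *L3mbtl2*-KD ESCs. The groups overlapped in this sum, owing to its most abundant gene, *Gata6* (log2 fold change 0.06, limma adjusted p = 0.88), although the sum was lower in 4 of 4 pairs. With the replicate block, 6 of these markers were down-regulated, beside 26% of all genes. Without *Gata6* the sum was 1.08, 0.967, 0.834 and 1.08 in control ESCs and 0.419, 0.501, 0.373 and 0.288 in *L3mbtl2*-KD ESCs, with no overlap. *Pdgfra* (-1.50) and *Gata4* (-0.92) fell. So did *Sox17* and *Dab2*, which were well above background on 3 of 4 and 1 of 4 *L3mbtl2*-KD arrays, so that the size of their fall (-2.07 and -2.53) is uncertain, and *Foxa2* was at least 2.45-fold lower and on no *L3mbtl2*-KD array well above background. Of primitive streak and mesoderm markers, which Nodal signalling induces in the embryo, 5 of 7 were tested. Up-regulated was 1 (*Fgf8*, log2 fold changes 1.25 and 1.30 of 2 probes) and down-regulated were 0, beside 10.3% and 11.7% of all genes. Their sum was 1.04, 1.46, 1.09 and 1.02 in control ESCs and 1.10, 1.28, 1.16 and 1.13 in *L3mbtl2*-KD ESCs. Without *Eomes* it was 0.273, 0.514, 0.276 and 0.315 in control ESCs and 0.477, 0.455, 0.386 and 0.432 in *L3mbtl2*-KD ESCs. The groups overlapped in both sums, and the sum without *Eomes* was higher in 3 of 4 pairs. *Eomes*, the most abundant, had a log2 fold change of -0.14 and *T* of -0.18, neither of which passed, and *Wnt3* was not well above background on any array. *Mixl1* was on 2 of 4 *L3mbtl2*-KD arrays (-2.99 and -3.82) and on 0 control arrays (-6.86 to -7.65), and was not tested. With the replicate block, where 26% of all genes were down-regulated, 1 of these markers was, *Gsc* (chosen after its values were seen). It was lower in 4 of 4 pairs, with a log2 fold change of -0.74 (95% confidence interval without the block -1.91 to 0.42, limma adjusted p = 0.35, or 0.0051 with the block).

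For trophectoderm markers, 6 of 7 were tested and 0 passed in either direction (limma with Benjamini-Hochberg adjustment), with 1 lower at an unadjusted p under 0.05 and overlapping groups for all 6. With the replicate block, 2 were down-regulated, beside 26% of all genes. Their sum was 8.44, 14.9, 12.7 and 9.56 in control ESCs and 7.32, 12.9, 12 and 8.67 in *L3mbtl2*-KD ESCs, with *Tfap2c* the most abundant and *Elf5* not well above background on any array. Of the 8 pluripotent stem cell markers, 2 were down-regulated with the replicate block, near the share of 26% of all genes. Without the block, where 11.7% of all genes were down-regulated, *Klf4* was down-regulated (log2 fold change -0.70, limma adjusted p = 0.027) and 7 did not pass. Among those that did not pass, *Nanog* (chosen after its values were seen) had the largest difference, a log2 fold change of -1.32 (95% confidence interval -2.43 to -0.20, limma adjusted p = 0.096), and was lower in 3 of 4 pairs. Their sum was 128, 115, 131 and 110 in control ESCs and 109, 108, 115 and 117 in *L3mbtl2*-KD ESCs, and the most abundant gene, *Utf1*, had a log2 fold change of 0.12. Without *Utf1* it was 84.2, 77.5, 78.4 and 63.6 in control ESCs and 62.9, 68.0, 64.6 and 57.0 in *L3mbtl2*-KD ESCs. The groups overlapped in all of these sums, while within pairs the trophectoderm sum and the pluripotent sum without *Utf1* were lower in 4 of 4. The part of any of these cell types in the values of *Nodal* and *Lefty2* was not tested.

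**Figure D5:**
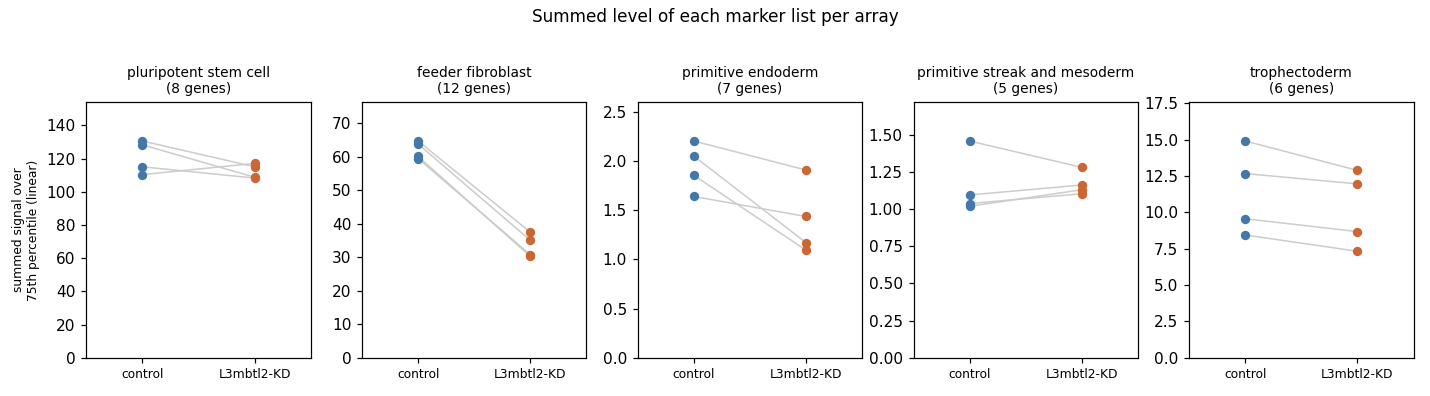
Summed linear signal (relative to the 75th percentile of the array, vertical axes from 0) of each list of cell type markers on the 4 control arrays (blue) and the 4 L3mbtl2-KD arrays (orange), with grey lines joining equal replicate numbers. The feeder fibroblast sum is lower on all L3mbtl2-KD arrays (30.2 to 37.5) than on all control arrays (59.4 to 64.6), and the other sums overlap.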

How the data were processed

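For each array, the authors deposited Feature Extraction output (version 10.7.3.1, per the file headers) that holds background-subtracted intensity for the spots, and flags of other kinds. A log2 table deposited by the authors goes back, in their methods, to a shift by the 75th percentile. Its columns have medians of -0.02, -0.04, 0.02, 0.02, 0.05, -0.06, -0.02 and 0.08 (control and *L3mbtl2*-KD ESCs in turn, replicates 1 to 4), and set against the intensities it is centred on each probe.

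Here, the 75th percentile of the array was subtracted from log2 intensity, without control spots and outlier flags, and spots with the same probe were averaged. No spot was saturated. Of 39429 probes, 26055 were named through RefSeq accessions (GRCm38.p6). The 23524 probes well above background on all arrays of at least 1 group were fitted with limma 3.58.1 in R 4.3.3, tested first on simulated data. On some array, 78 had no value. P values were adjusted by the Benjamini-Hochberg method over these probes. A gene was called when at least 1 probe had an adjusted p under 0.05. Medians and sums took, for each gene, its tested probe of highest mean. Named genes are the members, the siRNA target, the reporter gene, called pathway genes, and the called (up to 5) and most abundant markers. Other pathway genes and markers were named after their values were seen. The members and lists were chosen with earlier results of these data known, and 2 genes of the pathway list are not reported here or counted.

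After removal of group means, arrays sharing a replicate number correlated at 0.38 to 0.58 and other arrays at -0.44 to 0.25, so the replicate numbers appear to pair the samples. The authors do not state such pairing. Arrays sharing a number also took neighbouring positions on the same slide, and the part of position in this correlation was not tested. Both groups were on each of the 2 slides, but control and *L3mbtl2*-KD arrays took different positions on the slide, so position and group cannot be told apart. Alternatives were normexp background correction (offset 50, on median spot intensity), quantile normalization, the deposited log2 table, other filters on dim probes, slide or replicate blocks, an intensity trend, one-way ANOVA as in the figure legends, 1 probe per gene, a 1.5-fold threshold, each slide alone and leaving out each sample. Promoter sequences are from RefSeq.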

Additional observations from a re-analysis of the deposited data

Results flagged for a closer look

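In 6 of 56 groups of 4 samples examined, 1 sample lay far from the others, where chance gives about 1 group in 20. The gap to the nearest sample is given as a share of the range of the group. *Nodal* in *L3mbtl2*-KD replicate 4 read 3.42 against a mean of 3.14 in the other replicates (share 0.900), and a *Gdf3* probe in the same sample read 3.98 against 3.45 (share 0.954). *Id2* in control replicate 1 read -2.38 against -1.02 (share 0.908), and *Id4* in that sample read -4.46 against -4.25 (share 0.891). *Smad7* in control replicate 4 read 1.24 against 1.71 (share 0.866), and the untested second probe of *Bmp4* in that sample read -1.98 against -7.42 (share 0.908). Without *L3mbtl2*-KD replicate 4 the log2 fold change of *Nodal* was 0.52 (limma adjusted p = 0.008).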

How the results depend on the processing

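*Nodal* and *Lefty2* stayed higher in all alternatives, with log2 fold changes of 0.50 to 0.68 and 0.90 to 1.13, and passed in all but the fits to a single slide (for *Lefty2*, the first only). Within the first slide alone (2 arrays a group), limma with Benjamini-Hochberg adjustment called 0 members higher and 0 pathway genes higher or lower, as it called 0 of all genes. At an unadjusted p under 0.05 it gave 2 members higher and 1 lower, and 2 pathway genes higher and 9 lower, beside 7.31% of all genes higher and 9.75% lower. Within the second slide, 1 member was higher, 1 lower and 2 changed more than 2-fold, beside 744 of all genes higher and 927 lower. Down-regulated members, 0 without a block, numbered 1 with normexp background correction, quantile normalization or one-way ANOVA. They numbered 2 with 1 probe per gene, 3 with the slide as a block or an intensity trend, and 5 with the replicate block (*Gdf3* by its dimmer probe only). Over all genes, 1604 were lower at first, 1313, 1404 and 1278 in the first 3 of these fits, and 1560, 2104, 1675 and 3547 in the others. Up-regulated pathway genes, 6 at first, were 2 without the filter on dim probes and 3 with one-way ANOVA. Down-regulated pathway genes, 8 at first, were 18 with the replicate block, which removed none of the calls of members and pathway genes. Members past 2-fold, 1 at first, were 0 with quantile normalization and 2 at a 1.5-fold threshold. The share of all genes past the fold threshold is given for the first fit only, so no such count in an alternative is a result about the members. With each sample left out, the members higher numbered 2 to 3, the members lower 0 to 2, the pathway genes higher 1 to 6 and lower 7 to 9, and the members past 2-fold 0 to 2. Of all genes, 785 to 1398 were higher and 1000 to 1583 lower in these fits. The lowest count of up-regulated pathway genes came without control replicate 3. Up-regulated genes over the whole array also fell in number, from 1406 to 819 without the filter, 1197 with one-way ANOVA and 785 without control replicate 3. The brighter *Gdf3* probe was at -0.016 within the first slide. The slide and left-out fits had fewer samples, and the causes of these shifts were not tested. For dim probes, signal over background limits the size of a fold change.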
